A study of Mus musculus with 2 samples.

Results

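The zinc finger genes described here are the 167 genes of the deposited table, out of 18510 listed, whose symbol runs from Zfp600 to Zfp999. They were chosen by symbol alone, which used no measured value, and 152 of them had a mean of at least 1 CPM over both libraries. CPM is a gene's count scaled to a library total of 1000000. The study compared neural stem cells taken from embryonic brain of CD-1 mice at E12, grown for 5 days in a medium that keeps them proliferating. All cells were infected with lentivirus, which carried a control plasmid in one group and an H3.3 knockdown plasmid in the other, so the infection itself is shared. The variant histone H3.3 can enter chromatin outside DNA replication. What sequence the knockdown plasmid carries, and how many embryos were pooled, was not stated in what was used here.

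Each group held 1 library, with 9184779 counts in the control library and 8702855 in the knockdown library, so no difference could be checked in a replicate and none has a p-value. All intervals are 95% intervals of a pair of counts and cover counting error only, as the reads carried no stated molecular identifiers and are not independent molecules. Log2 ratios are those of the knockdown over the control library. H3f3b and H3f3a, which make the same H3.3 protein, went from 7539 to 3888 and from 1922 to 1177 counts, or 0.544 and 0.646 of the control level. The word "rose" or "fell" is kept for genes that met a size rule, whose terms are a mean level of 1 CPM or more, a ratio of 2-fold or more and an interval that leaves out 1.

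Most genes of this range encode C2H2 zinc finger proteins, in which each finger folds around a zinc ion held by a pair of cysteines and a pair of histidines and can contact a few bases of DNA. Many also carry a KRAB domain, which recruits the co-repressor encoded by Trim28 and, through it, the histone methyltransferase encoded by Setdb1, so that H3K9 is trimethylated and the DNA is silenced. In the mouse such proteins are best known for silencing endogenous retroviruses and for keeping imprints, and their genes lie in clusters that grew by tandem duplication. H3.3 itself has been found at silenced retroviral sequences in mouse embryonic stem cells, where it is deposited by the products of Atrx and Daxx.

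The copies within a cluster can be nearly the same in sequence, which bears on how reads are assigned and on the chromosome 2 result below. To show this, a C2H2 finger of Zfp971 and of Zfp970, members of the same chromosome 2 cluster, is given below. One of Zfp809 on chromosome 9 stands beside them. Each is the first match to a finger pattern of fixed spacing, with a few codons on either side. They are coding sequence of GENCODE M21 transcripts on GRCm38, with the codons of the zinc-binding cysteines and histidines in capitals.
Zfp971: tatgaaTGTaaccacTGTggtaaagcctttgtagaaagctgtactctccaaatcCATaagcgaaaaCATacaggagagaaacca
Zfp970: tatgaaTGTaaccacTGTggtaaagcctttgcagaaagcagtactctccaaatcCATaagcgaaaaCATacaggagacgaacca
Zfp809: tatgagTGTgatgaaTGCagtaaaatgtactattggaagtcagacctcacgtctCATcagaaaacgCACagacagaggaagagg
These stretches of Zfp971 and Zfp970 share 80 of 84 bases (95.2%), whereas that of Zfp809 shares 37 of 84 (44.0%) with that of Zfp971. The zinc-binding codons stand at the same places in all 3 because the stretches were chosen by that spacing.

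The next sequences are RefSeq promoters on GRCm38.p6, from 250 bases before to 50 bases after the start of transcription, and capitals mark CCAAT or its reverse complement ATTGG. The 3 from chromosome 2 belong to a cluster whose tested members all had ratios below 1, and the one of Zfp871 to a chromosome 17 cluster whose members all had ratios above 1.
Zfp971, chr2:178023034-178023333, plus strand: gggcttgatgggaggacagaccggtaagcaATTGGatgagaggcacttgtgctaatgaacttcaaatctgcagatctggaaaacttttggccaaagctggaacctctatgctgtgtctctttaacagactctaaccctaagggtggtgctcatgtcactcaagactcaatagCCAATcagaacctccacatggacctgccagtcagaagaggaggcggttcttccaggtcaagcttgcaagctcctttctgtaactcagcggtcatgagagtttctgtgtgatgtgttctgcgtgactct
Zfp970, chr2:177464492-177464791, plus strand: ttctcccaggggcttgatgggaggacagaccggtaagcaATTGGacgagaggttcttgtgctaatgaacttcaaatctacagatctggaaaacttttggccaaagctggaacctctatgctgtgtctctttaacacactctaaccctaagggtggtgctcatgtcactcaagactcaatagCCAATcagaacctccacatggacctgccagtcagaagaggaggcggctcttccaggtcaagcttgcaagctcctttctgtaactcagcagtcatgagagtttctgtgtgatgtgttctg
Zfp931, chr2:178078376-178078675, minus strand: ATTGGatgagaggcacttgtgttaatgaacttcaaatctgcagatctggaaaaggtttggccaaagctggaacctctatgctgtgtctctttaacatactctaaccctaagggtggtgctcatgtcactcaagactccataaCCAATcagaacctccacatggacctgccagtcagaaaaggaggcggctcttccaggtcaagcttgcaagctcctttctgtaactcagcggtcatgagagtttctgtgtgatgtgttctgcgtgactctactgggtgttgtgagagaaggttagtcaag
Zfp871, chr17:32788238-32788537, minus strand: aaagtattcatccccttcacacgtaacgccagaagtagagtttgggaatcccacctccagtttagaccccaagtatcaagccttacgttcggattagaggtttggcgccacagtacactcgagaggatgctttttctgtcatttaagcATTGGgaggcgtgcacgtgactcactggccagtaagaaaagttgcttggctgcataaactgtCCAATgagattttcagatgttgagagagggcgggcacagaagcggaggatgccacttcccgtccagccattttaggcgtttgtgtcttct
The promoters of Zfp971 and Zfp970 were identical at 94.7% of bases when aligned end to end, and those of Zfp971 and Zfp931 at 87.3%. Each of the 4 holds the motif on both strands.

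The 167 genes lie on 18 chromosomes, with 38 on chromosome 7, 24 on chromosome 17 and 16 on chromosome 8. Taking a cluster as a run of at least 3 members whose neighbouring starts lie within 1 Mb, 109 members fall into 17 clusters and 58 lie outside them. The deposited table annotates a KRAB domain for 118 members, among them all 24 on chromosome 17 and all 13 on chromosome 13. Fingers counted in the translated GENCODE coding sequences of 165 members numbered 0 to 33, with a median of 11 in members with KRAB and 7 in the others. Across 150 tested members the number of fingers and the log2 ratio had a Spearman correlation of 0.11, which is a description only, as members share clusters and sequence.

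Members were expressed at modest levels. Their median mean level was 18.7 CPM, against 30.8 CPM over all 13989 tested genes. Members with KRAB lay lower, at a median of 14.8 CPM, than those without, at 37.6 CPM. Per kilobase of annotated exon the highest levels were those of Zfp664 (38.6 CPM per kb in the control library and 25.1 in the knockdown library), Zfp706 (29.6 and 31.7), Zfp740 (31.0 and 29.7) and Zfp609 (27.7 and 19.2). None of these 4 carries an annotated KRAB domain. At the other end, 15 members had a mean under 1 CPM, and 9 of them belong to a single cluster on chromosome 4.

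Gene by gene, most of this family differed little between the libraries, while its summed level was 0.904 of the control (0.892 to 0.916). Of 152 tested members 2 rose (1.32%) and 1 fell (0.658%), while over all genes 3.82% rose and 2.54% fell. With 5 counts added to each library instead of 0.5, 1 rose and 0 fell, and at a minimum of 10 CPM none of either was left. The median log2 ratio was -0.02, beside -0.03 over all genes, with 73 members above 0 and 79 below. Log2 ratios within 0.5 of 0 were held by 130 members (85.5%), against 73.3% of all genes. The counting interval lay above 1 for 20 members (13.2%) and below 1 for 24 (15.8%), against 22.9% and 27% of all genes. These shares grow with depth, and median control counts were 168 for members and 285 for all genes. Between 30 and 100 CPM intervals lay below 1 for 38.9% of members and 35.2% of all genes. In that range they lay above 1 for 16.7% and 23.1%. In a bulk sample, fewer cells of a type and less RNA per cell cannot be told apart, and this holds for every difference given here.

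**Figure D1:**
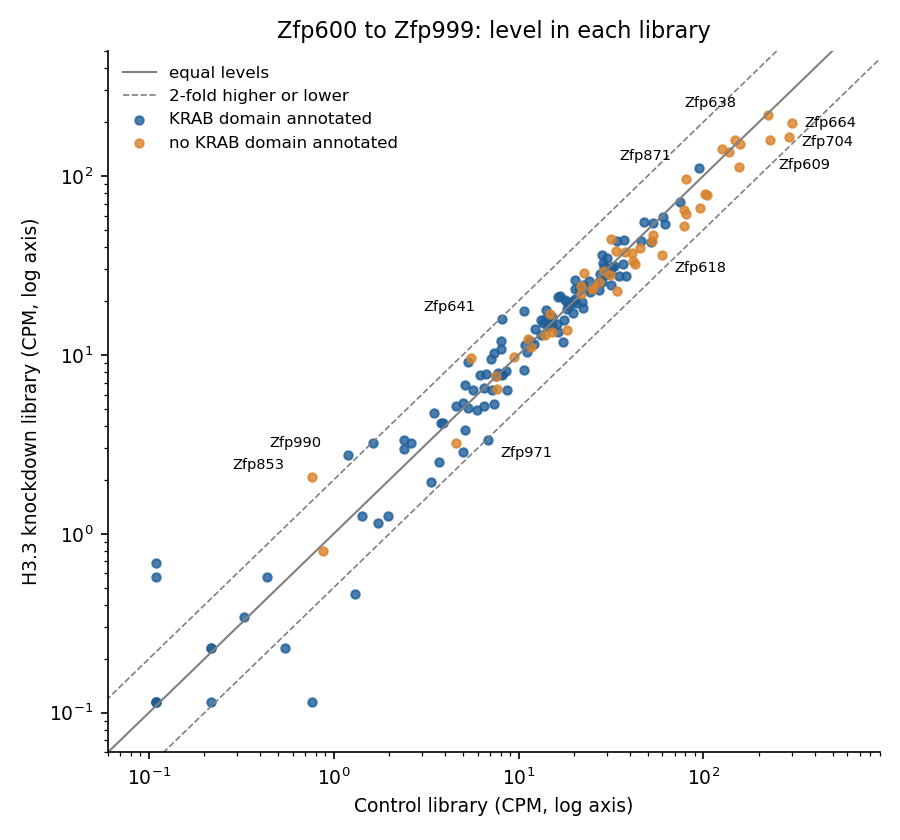
Level of each of the 167 zinc finger genes in the control library (x axis, CPM, log scale) and the H3.3 knockdown library (y axis, CPM, log scale), with members with an annotated KRAB domain in blue and the others in orange. The solid line marks equal levels and the dashed lines a 2-fold ratio. Of the tested genes Zfp990, Zfp853 and Zfp971 lie outside the dashed lines, while Zfp664, Zfp704 and Zfp609 lie under the solid line at the upper end; Zfp750, with no control count, is not drawn.

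Below 100 CPM a larger share of members than of all genes had log2 ratios near 0. Among genes with a mean of 1 to 10 CPM, 75.6% of 45 members had log2 ratios within 0.5 of 0, against 54.5% of 3710 genes of that level. Depth was not matched in this range, with median control counts of 51 for members and 29 for all genes, and fewer counts widen the spread. Between 10 and 30 CPM the shares were 91.8% of 61 members and 74.4% of 3182 genes, at median control counts of 168 and 169. Between 30 and 100 CPM they were 91.7% of 36 members and 81.6% of 4390 genes. There the lower and upper quartiles lay about equally far apart, by 0.44 for members and 0.45 for all genes. At 100 CPM and above the order turned, with 70.0% of 10 members and 84.3% of 2707 genes. Lying in a cluster went with a tight spread too: 90.6% of the 96 tested members in clusters lay within 0.5 of 0, and 76.8% of the 56 outside them. These shares were not tested against each other, and the clustered members are not independent of one another.

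**Figure D2:**
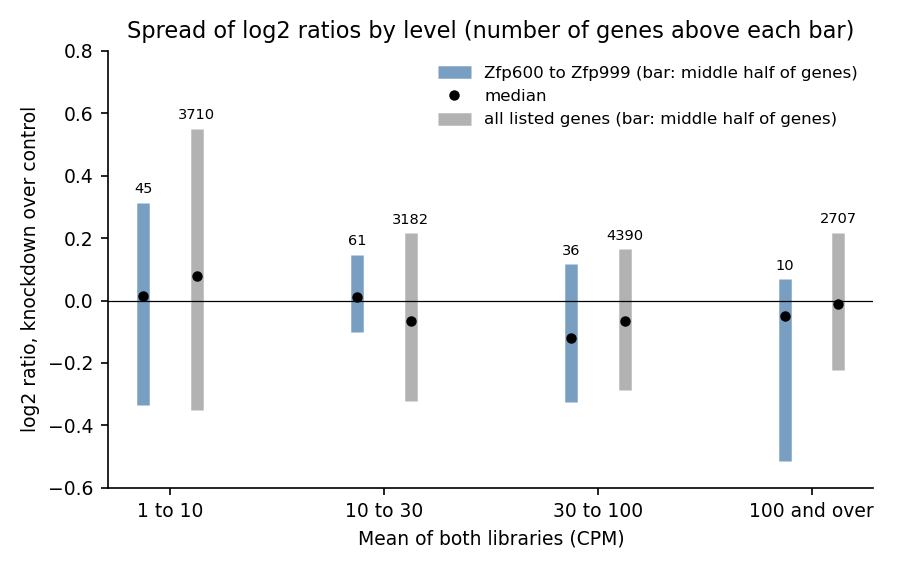
Log2 ratio of knockdown over control by mean level, for the zinc finger genes and for all listed genes in 4 ranges of mean CPM. Bars run from the lower to the upper quartile, dots are medians, and the number of genes stands above each bar. The bars of the zinc finger genes are clearly shorter than those of all genes between 1 and 30 CPM, about as long between 30 and 100 CPM, and longer at 100 CPM and above.

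Few counts stood behind the members that met the rule. Zfp971 (ENSMUSG00000074519, chromosome 2 from 178023284 to 178034022, plus strand) had 63 counts in the control library and 29 in the knockdown library. It fell to 0.486 of the control level, with an interval of 0.302 to 0.766. It is a KRAB gene with 12 fingers, and an antisense gene, Gm26869, overlaps it. Zfp990, a KRAB gene on chromosome 4, had 11 and 24 counts and rose 2.30-fold (1.09 to 5.21). Zfp853 on chromosome 5, which has no annotated KRAB domain, had 7 and 18 counts and rose 2.71-fold (1.08 to 7.69). Of the 50-base stretches in the exons of Zfp971 only 48.9% occur in no other gene, of those of Zfp990 70.9%, and of those of Zfp853 99.7%. The authors' deposited table marks the same 3 members as significant, with log2 fold changes of -1.04 for Zfp971, 1.20 for Zfp990 and 1.44 for Zfp853, among 1081 marked genes in all. With 5 counts added, Zfp971 and Zfp990 no longer met the size rule.

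Several members came near the rule without meeting it, and were singled out after their values were seen. Zfp641, a KRAB gene on chromosome 15, had 75 counts in the control library and 138 in the knockdown library, a ratio of 1.94 (1.46 to 2.61). Zfp691 had 51 and 83 counts (1.72, 1.20 to 2.48), and the KRAB gene Zfp941 had 98 and 153 (1.65, 1.27 to 2.15). These are the better supported of the higher values, since their intervals start well above 1. The KRAB gene Zfp960 had 15 and 28 counts, but it overlaps Chd1 and only 17.3% of its 50-base stretches are its own. In the other direction Zfp951 had 46 and 25 counts (0.574, 0.338 to 0.953).

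Members with and without a KRAB domain differed in their summed level. The 118 KRAB members together summed to 1923 CPM without and 1952 CPM with the knockdown, a ratio of 1.015 (0.994 to 1.037). The 49 others held 3193 and 2673 CPM, a ratio of 0.837 (0.823 to 0.852). By gene the gap was smaller: the median log2 ratio was 0.02 over 105 tested KRAB members and -0.10 over 47 others. Among KRAB members 57 lay above 0 and 48 below, and among the others 16 above and 31 below. The interval lay below 1 in 8 KRAB members (7.62%) and in 16 of the others (34.0%), a share that also grows with depth. Between 30 and 100 CPM it lay below 1 in 4 of 19 KRAB members and 10 of 17 others, and in 35.2% of all genes of that level, but depth differed within this range too, with median control counts of 339, 489 and 490. With ratios centred for transcript length and GC content the medians were 0.01 and -0.16, so the order of the groups was kept.

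The same order appears among the Zfp genes with lower numbers, Zfp1 to Zfp599. Their 95 tested members with KRAB had a median log2 ratio of 0.01 and the 103 without KRAB -0.17, and 1 of all 198 rose and 1 fell. Intervals lay below 1 for 44 of the 103 without KRAB (42.7%) and 14 of the 95 with KRAB (14.7%), beside 27% of all genes. These shares also grow with depth, which was not matched, with median control counts of 391 without KRAB and 144 with KRAB. No difference between these groups was tested, since each condition has 1 library.

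The largest differences in counts within the family lay among abundant members with no annotated KRAB domain. Zfp704, on chromosome 3, had 2664 counts in the control library and 1427 in the knockdown library, a ratio of 0.565 (0.530 to 0.603). Zfp664, on chromosome 5, had 2777 and 1713 (0.651, 0.613 to 0.692). Zfp609, on chromosome 9, whose product works with the cohesin loader Nipbl and the Integrator complex in neural progenitors, had 2107 and 1385 (0.694, 0.648 to 0.743). All 3 stayed short of a 2-fold difference, though their intervals end well below 1. The sum of the whole family had a plain ratio of 0.904 (0.892 to 0.916). Without the 3 members of the highest mean CPM, which are Zfp664, Zfp704 and Zfp638, the sum was nearer to equal levels. It was then -0.09 on the log2 scale, which is not the scale of the plain ratio.

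Others of this kind encode regulators with a known partner or disease link. Zfp703, a co-repressor of the Nlz type with no finger in the strict count, had 724 and 458 counts (0.668, 0.593 to 0.752). Zfp687, whose human counterpart is mutated in a form of Paget disease of bone, had 881 and 575 (0.689, 0.619 to 0.766), and it overlaps Pi4kb. Zfp652, whose human counterpart binds the co-repressor CBFA2T3, had 1437 and 981 (0.720, 0.664 to 0.782). Zfp827, whose human counterpart brings the NuRD complex to telomeres, had 723 and 563 (0.822, 0.735 to 0.919). Zfp618, named after its value was seen and known in human cells as a partner of UHRF2, had 549 and 313 (0.602, 0.522 to 0.693). All 5 were lower in the knockdown library by less than 2-fold.

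Not every abundant member was lower. Zfp638, which recruits the HUSH silencing complex to unintegrated retroviral DNA in human cells, had 2056 counts in the control library and 1896 in the knockdown library (0.973, 0.914 to 1.04). Zfp740 had 1449 and 1317 (0.959, 0.890 to 1.03), and Zfp608 on chromosome 18, a relative of Zfp609, had 1269 and 1188 (0.988, 0.912 to 1.07). Zfp706, a brake on self-renewal in mouse embryonic stem cells, had 1356 and 1373 (1.07, 0.991 to 1.15). The intervals of these 4 include 1. Zfp644, whose human counterpart works with the H3K9 methyltransferases G9a and GLP, had 1153 and 1236 (1.13, 1.04 to 1.23). The X-linked Zfp711, whose human counterpart is mutated in intellectual disability, had 292 and 387 (1.40, 1.20 to 1.63).

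Members known as retroviral silencers had counting intervals that include 1. Zfp809, which binds the primer binding site of murine leukaemia virus, had 57 counts in the control library and 67 in the knockdown library (1.24, 0.858 to 1.80). Zfp932, which represses endogenous retroviruses, had 130 and 134 (1.09, 0.848 to 1.40), with 63.0% of its 50-base stretches unique. These intervals allow a larger difference for Zfp809 than for Zfp932. Zfp961 had 164 and 177 counts (1.14, 0.916 to 1.42). Zfp819 had 1 count in each library and cannot be compared.

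Of the other members with a known role, Zfp746, which encodes the KRAB protein PARIS that represses Ppargc1a, had 556 and 515 counts (0.978, 0.865 to 1.10). Zfp804a, whose human counterpart lies at a schizophrenia risk locus, had 200 and 191 (1.01, 0.822 to 1.24). Zfp830 had 201 and 210 (1.10, 0.904 to 1.34), Zfp655 339 and 279 (0.869, 0.739 to 1.02) and Zfp622, a relative of a yeast ribosome assembly factor, 417 and 345 (0.873, 0.755 to 1.01). All 5 intervals include 1. Zfp668, which overlaps Zfp646, had 384 and 291 counts (0.800, 0.684 to 0.934). Zfp750, a driver of epidermal differentiation, had 0 and 5 counts, where 3 counts allow up to 0.327 CPM in the control, and it overlaps Tbcd.

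By chromosome cluster the ratios were similar within some clusters and mixed in others. Over the 17 clusters the median log2 ratio ran from -0.54 to 0.25. In 2 clusters with at least 5 tested members every one lay above 0, and in 1 every one lay below. Members of a cluster share sequence and may share reads, so they are not independent.

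**Figure D3:**
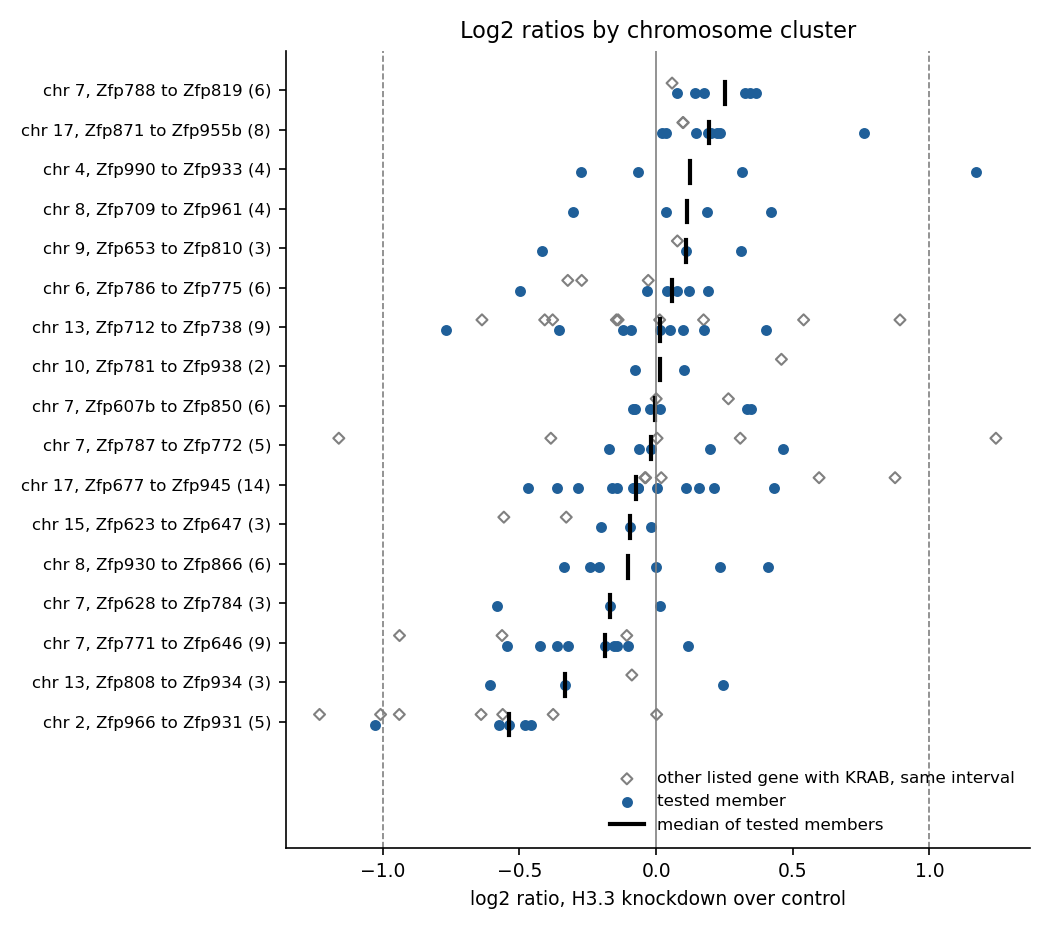
Log2 ratio of knockdown over control (x axis) for the tested zinc finger genes of each of the 17 chromosome clusters (rows, ordered by median, number of tested members in parentheses). Filled points are members, bars their median, open diamonds other listed genes with a KRAB domain between the first and last member, and dashed lines mark a 2-fold ratio. The members on chromosome 2 all lie below 0, as do those of Zfp623 to Zfp647 on chromosome 15. The members of Zfp788 to Zfp819 on chromosome 7 and of Zfp871 to Zfp955b on chromosome 17 all lie above it.

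The lowest cluster was that on chromosome 2, from Zfp966 to Zfp931 (175918881 to 178078476), in which all 6 listed members are KRAB genes. Zfp966 had 34 counts in the control library and 22 in the knockdown library, Zfp973 16 and 10, Zfp970 68 and 46, Zfp971 63 and 29, and Zfp931 80 and 55. Zfp972 had 2 counts in each and was not tested. The 5 tested log2 ratios ran from -1.03 to -0.46 with a median of -0.54, and the cluster's sum went from 263 to 164 counts, or 0.658 of the control level (0.538 to 0.803). Taken singly, only the interval of Zfp971 leaves out 1. The other KRAB genes listed between them pointed the same way: 6 of 7 tested lay below 0, and their median was -0.64. Among these Gm14325 fell from 60 to 28 counts and Gm14326 from 28 to 11, while Gm14295 had 19 and 18.

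None of the 6 members reaches 80% of unique 50-base stretches, and the median was 46.2%. How the authors' counting treated reads that fit several copies is not stated in what was used here, so the values of single genes in this cluster are uncertain.

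**Figure D4:**
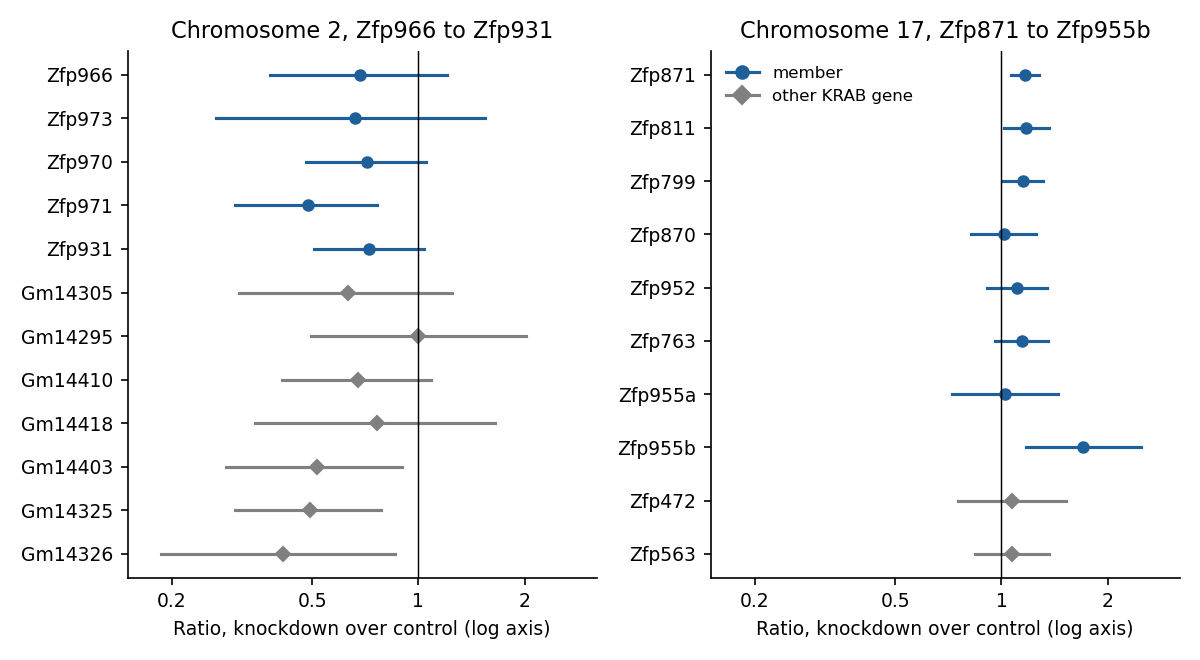
Ratio of knockdown over control (x axis, log scale) with its 95% counting interval for the tested genes of the chromosome 2 cluster (left) and the distal chromosome 17 cluster (right). Circles are the zinc finger genes Zfp600 to Zfp999 and diamonds other KRAB genes between them. On the left the points lie at or below 1 with wide intervals, and on the right at or above 1 with narrower ones.

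The opposite pattern was found on distal chromosome 17, from Zfp871 to Zfp955b (32771236 to 33303196), where all 8 members are KRAB genes and all were tested. Zfp871 had 869 counts in the control library and 961 in the knockdown library (1.17, 1.06 to 1.28), Zfp811 341 and 380, Zfp799 441 and 480, and Zfp763 262 and 283. Zfp952 had 205 and 215 counts, Zfp870 181 and 174, Zfp955a 71 and 69, and Zfp955b 49 and 79. The 8 log2 ratios ran from 0.02 to 0.76 with a median of 0.19, and the sum from 2419 to 2641 counts gave a ratio of 1.152 (1.090 to 1.218). None of the 8 met the size rule, and the intervals of 4 lay above 1. Zfp955b had the highest ratio (1.70, 1.18 to 2.48), but 50.2% of its 50-base stretches are unique and its RefSeq promoter is identical to that of Zfp955a. The values of this pair are uncertain for the same reason. The neighbours Zfp472 and Zfp563, KRAB genes with lower numbers, both had log2 ratios of 0.10.

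A second cluster with all tested members above 0 lies on chromosome 7, from Zfp788 to Zfp819 (41633203 to 43618285). Its 6 tested members had log2 ratios from 0.08 to 0.36 with a median of 0.25, and the sum of all 8 gave a ratio of 1.214 (1.116 to 1.32). Zfp788 had 315 and 374 counts (1.25, 1.08 to 1.46), Zfp719 186 and 227 (1.29, 1.06 to 1.57) and Zfp715 260 and 313 (a ratio of 1.27 with an interval from 1.07 upwards). These 3 have at least 99% unique stretches. Zfp975, the lowest of the tested members, had 36 counts in each library. Among the untested members Zfp977 pointed the other way, with 12 and 4 counts (0.352, 0.0827 to 1.16), and Zfp819 had 1 count in each library. The other tested genes in the interval, 5 in number, had a median log2 ratio of -0.22.

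Another cluster on chromosome 7, from Zfp771 to Zfp646 (127244274 to 127885996), lay mostly below 0. Of its 9 members 8 were below 0, with a median of -0.19. The median was -0.32 at a minimum of 10 CPM, which leaves out Zfp747 and Zfp764. It was also -0.32 without members under 80% unique stretches, which leaves out the same pair. With the length and GC correction it was -0.30. The cluster's sum went from 3460 to 2632 counts (0.803, 0.763 to 0.845). Zfp646 had 961 counts in the control library and 678 in the knockdown library (0.745, 0.674 to 0.822), Zfp629 940 and 693 (0.778, 0.704 to 0.859), and Zfp689, the lowest, 159 and 103 (0.684, 0.528 to 0.882). Zfp747 was the highest, with 35 and 36 counts. The 21 other tested genes in this gene-dense interval had a median of -0.19 without these changes of setting.

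The largest cluster, on proximal chromosome 17 from Zfp677 to Zfp945 (21383748 to 22867134), was mixed. Of its 14 tested KRAB members 5 lay above 0 and 9 below, with a median of -0.07, and the sum went from 2834 to 2444 counts (0.910, 0.862 to 0.961). Zfp760 was the lowest, with 351 counts in the control library and 240 in the knockdown library (0.722, 0.610 to 0.853), and Zfp947 the highest, with 32 and 41 (1.35, 0.831 to 2.22). Zfp945, its most counted member, had 476 and 370 (0.820, 0.714 to 0.942). The cluster from Zfp712 to Zfp738 on chromosome 13 held 5 members above 0 and 4 below. There Zfp953 had 31 and 17 counts (0.579, 0.300 to 1.08), Zfp874a 47 and 59 (1.32, 0.888 to 1.99) and Zfp729a 286 and 254 (0.937, 0.788 to 1.11), each with an interval that includes 1.

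The remaining clusters with at least 5 tested members had medians between -0.10 and 0.06. On chromosome 6, from Zfp786 to Zfp775, the median was 0.06, with Zfp783 lowest at 42 and 28 counts and Zfp956 highest at 136 and 147. These 2 overlap each other. On chromosome 7, from Zfp787 to Zfp772, the median was -0.02, with Zfp787 at 288 and 242 counts and Zfp773 at 68 and 89. The cluster's KRAB neighbour Zim1, an imprinted gene of the Peg3 domain, rose from 199 to 447 counts, and the KRAB neighbour Zfp78 fell from 29 to 12. From Zfp607b to Zfp850, also on chromosome 7, the median was 0.00, with Zfp780b at 151 and 182 counts and Zfp850 at 112 and 100. On chromosome 8, from Zfp930 to Zfp866, it was -0.10 and the sum went from 1259 to 1077 counts (0.903, 0.832 to 0.980), with Zfp868 at 320 and 240, Zfp963 at 65 and 82 and Zfp866 at 571 and 468. The intervals of Zfp780b, Zfp868 and Zfp866 leave out 1, and those of the other 6 members named in this paragraph include it.

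The chromosome 4 cluster, from Zfp990 to Zfp933 (145510759 to 147848366), was the least expressed. Of its 13 KRAB members 4 were tested, at a median log2 ratio of 0.12, and the other 9 held 1 to 7 counts in each library. Zfp990 rose, as above, while Zfp933 had 188 counts in the control library and 170 in the knockdown library, Zfp992 55 and 43 and Zfp979 22 and 26. The sum of all 13 went from 302 to 289 counts, a ratio of 1.01 (0.857 to 1.19). Only 3 of the 13 have at least 80% unique stretches.

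Promoters were available for 145 of the 167 members, 174 in all, and were searched on both strands, with matches of different motifs counted separately even where they shared bases. CCAAT, which the trimeric factor NF-Y can bind, was found in 56.3% of members' promoters and in 37.4% of all 32851 promoters of the same length. By domain the share was 64.8% of KRAB members' promoters and 36.5% of the others. It was present in all 6 promoters of the chromosome 2 cluster and all 8 of the distal chromosome 17 cluster, which come from 7 genes. These clusters had opposite directions of ratio. GGGCGG, a GC box, was found in 45.4% of members' promoters and 35.7% of all, and in none of the 6 on chromosome 2. CGGAAG, a core read by ETS factors, was found in 32.2% and 16.9%, and TATAAA in 4.60% and 13.6%. These matches are descriptions of letters and not binding sites. The chromosome 2 promoters resembled each other more (pairwise identity 67.3% to 97.7%, median 83.0% of 15 pairs) than those on distal chromosome 17 (median 53.7% of 21 pairs).

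Genes through which KRAB proteins act, or that act on the same chromatin, lay lower more often than higher when taken as 1 list. Of 35 co-repressor and silencing genes 34 were listed and tested. By the size rule 3 of the 34 fell, a larger share than the 2.54% of all genes. None of them rose, against 3.82% of all genes. Their median was -0.20 on the log2 scale, with 11 of the 34 above 0, where 47.1% of all genes lay. The 3 that fell were Uhrf1, which brings the maintenance methyltransferase to replicated DNA, from 1309 to 458 counts (0.369, 0.331 to 0.411), the remodeller gene Hells from 541 to 201 (0.392, 0.332 to 0.462), and Dnmt1, the maintenance methyltransferase, from 2856 to 1159 (0.428, 0.400 to 0.459). The de novo methyltransferase gene Dnmt3a had 1957 and 2359 counts (1.27, 1.20 to 1.35). Trim28 itself had 4273 counts in the control library and 2930 in the knockdown library (0.724, 0.690 to 0.759), and Setdb1 1029 and 883 (0.906, 0.827 to 0.992). Atrx had 4539 and 4961 (1.15, 1.11 to 1.20). Zfp57, a KRAB gene that guards imprints, had 533 and 531 (1.05, 0.931 to 1.19).

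**Figure D5:**
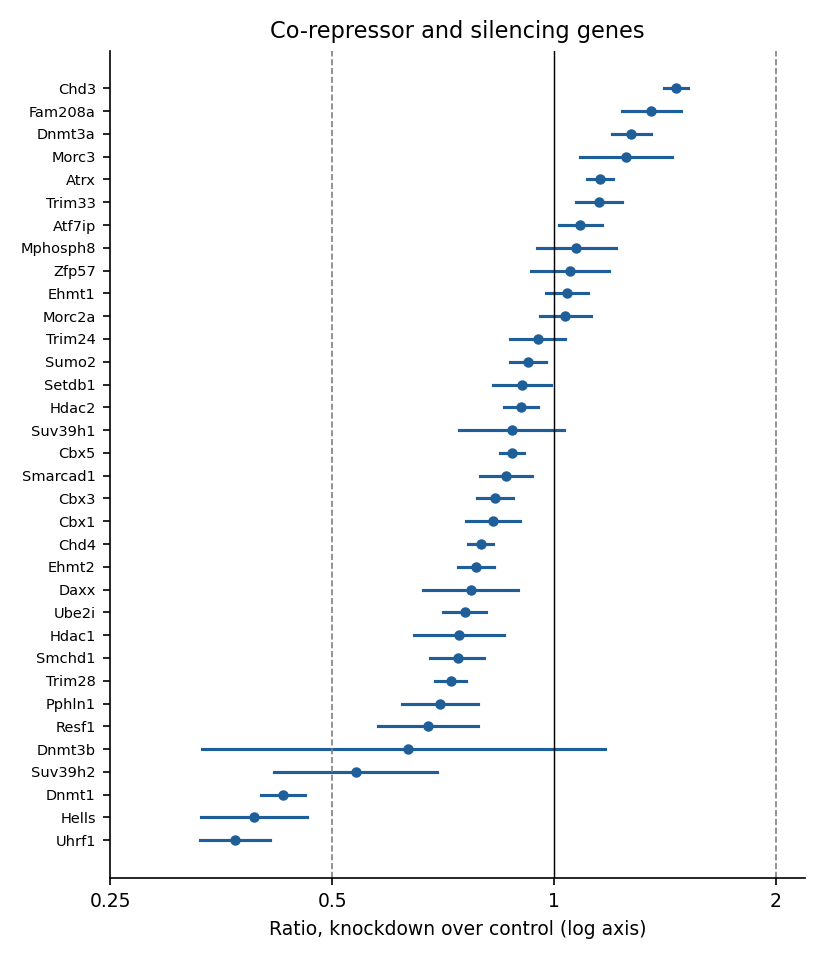
Ratio of knockdown over control (x axis, log scale) with its 95% counting interval for the 34 listed co-repressor and silencing genes, ordered by ratio. The solid line marks equal levels and the dashed lines a 2-fold ratio. Dnmt1, Hells and Uhrf1 lie below 0.5, Trim28 at 0.724, and none lies above 2.

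Markers of dividing cells and of cell types moved between the same libraries, and their part in the differences above was not tested. All 8 markers of dividing cells had log2 ratios below 0 and 5 fell, with their summed level going from 1785 to 868 CPM. Of 8 neuron markers 3 rose (5036 to 7007 CPM in sum), and of 8 oligodendrocyte markers 6 fell (1540 to 1313 CPM), a sum in which Olig1 alone went from 763 to 993 CPM. None of 8 markers of neural stem cells and radial glia met the rule (4575 and 4671 CPM). Their median log2 ratio was -0.24 with 6 of 8 below 0, Pax6 at 0.536 of the control and Fabp7 at 1.33. Of 6 astrocyte markers 1 fell (787 and 851 CPM). Markers of other sources had low sums. The 8 of microglia summed to 3.81 and 6.43 CPM, and C1qa rose from 5 to 14 counts. The 6 of endothelium summed to 7.08 and 13.3 CPM, with Cdh5 and Cldn5 not listed, and Flt1 rose from 0 to 20 counts. The 7 of mesenchyme and pericytes summed to 37.1 and 42.5 CPM, in which Pdgfrb fell from 209 to 51 counts while Col1a1 (54 to 107), Col1a2 (33 to 83) and Col3a1 (31 to 108) rose. The 4 erythroid markers summed to 0.109 and 0.345 CPM, with 3 not listed.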

How the data were processed

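Counts of reads per gene, 1 column for each library, came from a single deposited table; per the file headers they are counts, and the values are whole numbers that sum to different totals. The authors' deposited table also gives CPM values, a fold change and its log2, and p-values, and of these columns only the log2 fold changes and the mark of significance of 3 members are printed. HTSeq 0.6.0, Bowtie 1.0.1 and TopHat2 2.0.12 appear in the submitters' processing notes. Build, strand use and settings were not given in the sources used here. Overlapping, antisense and near-identical genes may therefore have exchanged reads. Of the 167 members 36 overlap another listed gene, 26 of them in antisense.

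Symbols were matched for 18423 of 18510 Ensembl IDs (99.5%). Members' positions were read from the deposited table; 114 of 167 equal those of GENCODE M21 on GRCm38, and 141 match it at 1 end or more. Counts were divided by the library's total, and log2 ratios had 0.5 count added to each library. The size rule was applied to those ratios, and the exact conditional (Clopper-Pearson) interval was computed on the counts as they are. With 1 library per group no model was tested. A gene is called tested where its mean reached 1 CPM. Cell type and co-repressor lists were chosen with earlier results of these data known. The rule for the members used the symbol alone, but it too was set with such results known. Genes were named when they met the size rule, were among the 10 members of the highest mean CPM, were the highest, lowest or most counted of a cluster with at least 5 tested members, or had a role known beforehand (Zfp708 was not listed); others were named after their values were seen, among them Zfp641, Zfp691, Zfp941, Zfp960, Zfp951, Zfp618, Zfp629, Zfp715 and the members given for the 2 clusters drawn.

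KRAB domains came from the deposited table's Pfam column, and a gene given another name there counts as without KRAB. In translated GENCODE coding sequences a KRAB motif was found in 103 of the 118 annotated members. It was also found in 2 members not annotated, Zfp964 and Zfp873. Fingers were counted in the same translations by the usual spacing of cysteines and histidines, since no protein table was used. Uniqueness is the share of a gene's exonic 50-base stretches found in no other gene's transcripts. Alternatives were TMM scaling (edgeR 4.0.16), size factors (DESeq2 1.42.0), other added counts, minimum levels and cluster gaps, a length and GC correction, and subsets of members. TMM moved all log2 ratios by 0.02 and size factors by -0.01. The procedure was tested on simulated data. Calculations used Python 3.11.15, pandas 2.3.3, SciPy 1.17.1 and R 4.3.3.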

Additional observations from a re-analysis of the deposited data

How the results depend on the processing

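No paired analysis was possible because each group has 1 library, and no replicate could be left out. The counts of members that met the size rule rest on few reads. With 5 counts added 1 member rose and 0 fell, as Zfp971 and Zfp990 then had log2 ratios of -0.92 and 0.94. At a minimum of 10 CPM 0 rose and 0 fell, and without members under 80% unique stretches 1 rose and 0 fell. That share alone sets the subset. It leaves out Zfp617, Zfp784 and Zfp937, which share 0% of coding stretches with other members. Among members that overlap no other listed gene, a subset chosen after seeing the data, 0 fell. Of Zfp1 to Zfp599, 0 fell with 5 counts added, and at 10 CPM 0 rose and 0 fell. Without the 3 members of highest mean CPM the log2 ratio of the summed level was -0.087. At 10 CPM cluster medians were -0.067 on chromosome 4, -0.38 for Zfp628 to Zfp784 and -0.32 for Zfp771 to Zfp646 on chromosome 7, -0.21 for Zfp930 to Zfp866 on chromosome 8, -0.15 on chromosome 9, and 0.24 for Zfp808 to Zfp934 on chromosome 13. Without members under 80% unique stretches they were -0.067, -0.38, -0.32 and -0.21 for the first 4 of these. In that subset Zfp712 to Zfp738 on chromosome 13 had -0.093. In both settings the chromosome 4 value was that of Zfp933 alone. The value for Zfp628 to Zfp784 came from Zfp628 and Zfp865 only in both. At 10 CPM the chromosome 9 value came from Zfp653 and Zfp810 only. The value of 0.24 was that of Zfp935 alone, which has 0% unique stretches. With the length and GC correction the median of Zfp771 to Zfp646 was -0.30. The chromosome 2 cluster gave no value at 10 CPM or without members under 80% unique stretches, since no member was left. With a gap of 0.5 Mb its median was -0.48. The cause was tested for none of these shifts, beyond the smaller number of genes each subset leaves.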
